A study of Homo sapiens with 24 samples.

Results

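The interferon regulatory factor (IRF) genes listed here are IRF1, IRF2, IRF3, IRF4, IRF5, IRF7, IRF8 and IRF9, chosen by name as family members, so 8 of the 26485 gene symbols in the count table. They were followed across all 8 groups of a transcriptome study of copper handling in SH-SY5Y, a cell line from a human neuroblastoma, with 3 libraries per group. Cells were treated for 24 h with interferon gamma together with TEPA (TEPA+IFN), with interferon gamma together with dextran-catechin (DC+IFN), with interferon gamma alone (IFN), with TEPA alone (TEPA) or with dextran-catechin alone (DC), or were left untreated for 24 h (C24). Another group received copper chloride for 4 h (Copper) and was set against cells left untreated for 4 h (C4). TEPA is a polyamine that binds copper, and dextran-catechin is a polymer conjugate of the plant polyphenol catechin. All groups share 1 cell line, doses are not in the labels, and nothing there says whether libraries within a group were grown as separate cultures, so p-values measure the spread between these libraries, which may be technical.

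IRF proteins are transcription factors with a shared DNA-binding domain that recognises GAAA repeats in promoters. Interferon gamma acts through its receptor and the kinases JAK1 and JAK2, and IRF1 is among the genes switched on through GAS elements in their promoters. IRF9 works with STAT2 in the complex ISGF3, which binds interferon-stimulated response elements, IRF2 competes with IRF1 for the same sites, IRF3, IRF5 and IRF7 are activated by phosphorylation downstream of nucleic acid sensors, and IRF4 and IRF8 work mostly in lymphoid and myeloid cells.

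Of the 8 genes, 5 had upstream sequence in the RefSeq table used here (GRCh38.p14), in 9 windows reaching 250 bases before a transcription start. Each was searched on both strands for a GAS element written TTCNNNGAA and for an ISRE core written GAAANNGAAA. IRF2, IRF3 and IRF7, which were called higher in IFN against C24, had no window. IRF8, with no GAS match in its windows, had counts only in libraries with interferon. Both windows that held a GAS element belonged to genes that rose with interferon gamma, but whether the element goes with a rise was not tested. They are printed to show where the element lies, with its bases in capitals and the upstream strand of the gene shown 5′ to 3′. The IRF1 window is chr5:132490774-132491023 on the minus strand, and its element spans bases -124 to -116 from the start. The IRF9 window is chr14:24161015-24161264 on the plus strand, and its element spans bases -63 to -55.
IRF1: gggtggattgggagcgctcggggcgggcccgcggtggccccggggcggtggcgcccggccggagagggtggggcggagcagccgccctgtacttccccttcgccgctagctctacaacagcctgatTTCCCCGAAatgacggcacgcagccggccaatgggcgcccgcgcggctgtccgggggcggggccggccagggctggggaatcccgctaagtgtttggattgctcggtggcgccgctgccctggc
IRF9: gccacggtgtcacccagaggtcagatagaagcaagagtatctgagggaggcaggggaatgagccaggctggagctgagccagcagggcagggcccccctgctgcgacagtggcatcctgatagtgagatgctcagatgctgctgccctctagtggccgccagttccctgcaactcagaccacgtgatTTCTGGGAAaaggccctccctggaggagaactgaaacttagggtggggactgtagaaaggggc

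The windows of IRF4, IRF5 and IRF8 held no match to TTCNNNGAA, and no window of the 5 genes held GAAANNGAAA. Among all 35116 windows of 300 bases in the table, 7.66% held the GAS pattern and 3.57% the ISRE core. A match is a description of the letters and was not tested for binding. The GENCODE 29 span of IRF9 begins upstream of this RefSeq start, so part of its window lies inside annotated transcripts. All windows of IRF5 and IRF8 lie inside the GENCODE 29 spans of these genes. The IRF8 span begins at 85898803 on chromosome 16, and its first window only at 85902580. Sequence before the spans of IRF5 and IRF8 was thus not searched.

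Library totals were 24569980 to 35372442 counts. Transcripts of the adrenergic neuroblastoma programme summed to between 1780 and 2290 CPM (counts scaled to the library total, corrected for composition) in each library, with DBH, ISL1 and HAND2 all present, while TH, the first enzyme of catecholamine synthesis, held 5 counts in all 24 libraries. Of 9 leukocyte markers, CD3E and MS4A1 had 0 counts throughout and the summed level stayed between 0.21 and 0.903 CPM, without being higher in the interferon groups. The neuroblastoma sum was lower with interferon without overlap, at 1870 to 1960 CPM in TEPA+IFN against 2230 to 2270 in TEPA, 1920 to 1990 in DC+IFN against 2070 to 2210 in DC, and 1900 to 2020 in IFN against 2140 to 2220 in C24 libraries. Of its 8 tested genes 1 fell in IFN against C24, or 4 with the GC trend removed. The sum of 5 fibroblast and endothelial markers, most of it PDGFRB, was higher without overlap, at 61.9 to 100 CPM in TEPA+IFN against 39.2 to 58.9 in TEPA, 73 to 75 in DC+IFN against 38.8 to 53.6 in DC, and 59.1 to 109 in IFN against 39.8 to 43.3 in C24 libraries, while COL1A2 fell by 0.82 on the log2 scale in IFN against C24 (SE 0.22, edgeR adjusted p = 0.0118) and the endothelial PECAM1 held 5 counts in all 24 libraries. The part of these markers in the results was not tested. Libraries differed in how strongly GC-rich transcripts were represented. The GC difference, the median log2 deviation of genes above 60% GC minus that of genes under 40% GC, ran from -1.34 to 1.37, and its mean was 0.46 in the IFN group and -0.71 in the C24 group. Genes above 60% GC had a median log2 fold change of 1 for IFN against C24 (n = 1976), set against 0.01 for all tested genes. Values after removal of this trend therefore stand beside those from the counts as deposited where the fold of a named gene differs by over 1.5 times or its call changes.

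The make-up of the family differed between cells with and without interferon gamma. Per kilobase of transcript, IRF1 stood first in IFN cells at 97.2 ± 32.3 CPM per kb, followed by IRF9 at 39.95 ± 6.42, IRF2 at 23.1 ± 3.99, IRF3 at 6.54 ± 2.14, IRF7 at 2.71 ± 1.23 and IRF5 at 0.165 ± 0.0865 (SD, n = 3). In C24 cells IRF2 stood first at 6.05 ± 0.166 CPM per kb, followed by IRF9 at 2.97 ± 0.258, IRF3 at 1.95 ± 0.499, IRF1 at 0.61 ± 0.0571, IRF5 at 0.0973 ± 0.0632 and IRF7 at 0.0258 ± 0.00835. The ranges of IRF5 and IRF7 overlapped in C24 cells, and every other pair of neighbours named was separated in both groups.

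As a share of the summed length-scaled level of the 8 genes, IRF1 took 57.5% in TEPA+IFN, 54.5% in DC+IFN and 56.4% in IFN cells, against 4.6% in TEPA, 4.58% in DC and 5.2% in C24 cells. IRF2 took 14.1%, 15.2% and 13.9% in the same 3 interferon groups, against 47.5%, 50.5% and 51.8% without interferon. The share of IRF9 stayed within 23.3% to 27.6% in all 6 groups of 24 h. In the 4 h groups the IRF2 share was 37.1% in Copper and 44.4% in C4 cells, and that of IRF3 was 33.5% in Copper and 27.4% in C4 cells, with ranges over the libraries of 24% to 44.8% and of 14.6% to 37.7%.

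**Figure D1:**
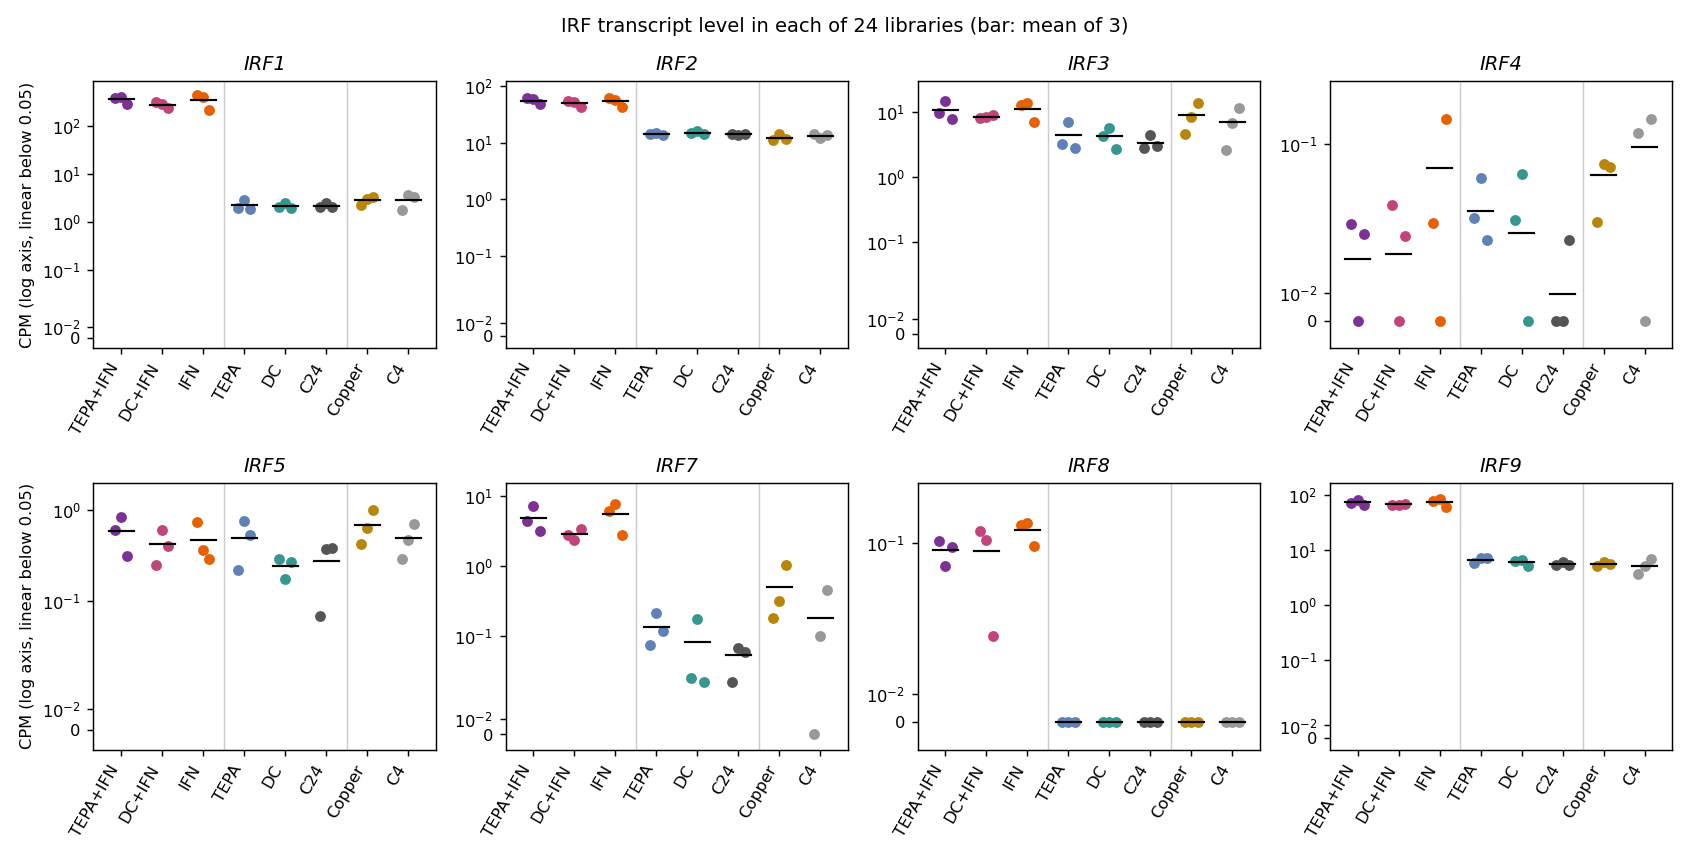
Level of each IRF gene in every library, in CPM on a log axis that turns linear below 0.05, with 1 dot per library and a bar at the mean of 3. IRF1, IRF2, IRF7, IRF8 and IRF9 are higher in each of the 9 libraries with interferon gamma than in any of the other 15, whereas IRF3, IRF4 and IRF5 overlap.

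**Figure D2:**
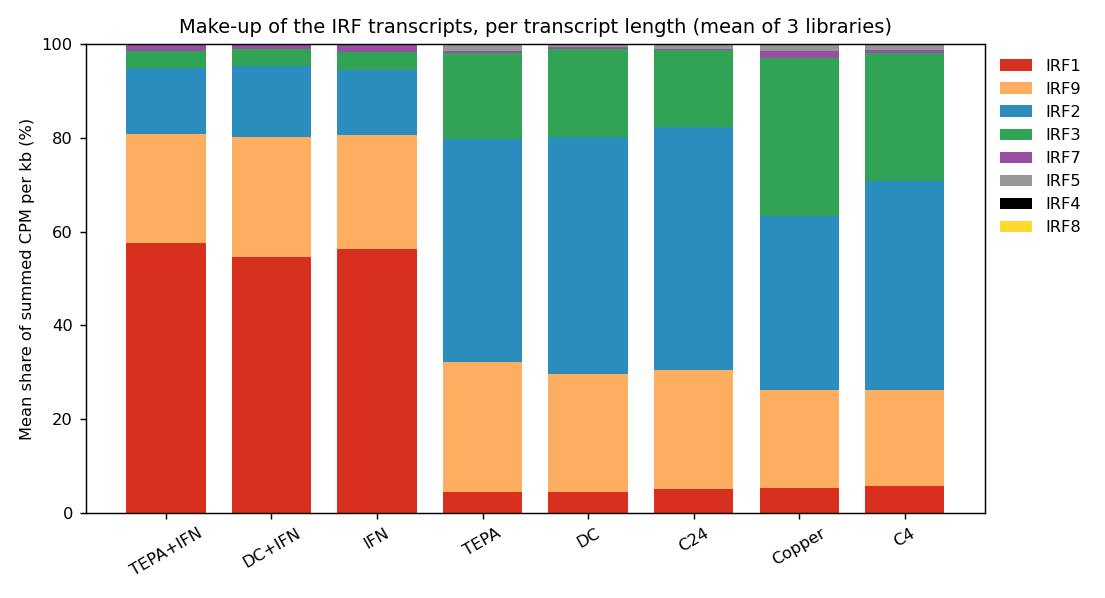
Mean share of each IRF gene in the summed CPM per kb of the family, in percent, for the 8 groups (mean of 3 libraries). IRF1 is the largest segment of each interferon bar, at 54.5% to 57.5%, and IRF2 is the largest segment in each of the other 5 bars.

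With interferon gamma alone, 5 of the 6 IRF genes that passed the filter on low counts rose at an adjusted p under 0.05, and none fell, while 18.8% of all 14654 tested genes were called, 10% rising and 8.8% falling. In DC+IFN against DC cells 4 of 6 rose, where 9.82% of tested genes were called, 6.16% rising and 3.66% falling. In TEPA+IFN against TEPA cells 4 of 6 rose, where 14.2% of tested genes were called, 7.28% rising and 6.89% falling. IRF1, IRF2, IRF7 and IRF9 were called in all 3 comparisons and IRF3 in the first. After removal of the GC trend the same 5 genes were called in each of the 3, and the share of tested genes that rose or fell was 12.9% and 23% for IFN against C24, 9.66% and 16% for DC+IFN against DC, and 11.7% and 19.9% for TEPA+IFN against TEPA. IRF4 and IRF8 were too low to be tested, and IRF7 passed the filter only through the interferon libraries, where it is high, so its place among the tested genes already rests on that difference. Without IRF7 the counts on the deposited values were 4 of 5, 3 of 5 and 3 of 5. The median log2 fold change of the 6 tested members was 2.84, 2.60 and 2.70, set against 0.01, 0.01 and 0 for all tested genes. All 9 libraries with interferon lay above all 15 without it for 4 of the 6 tested members, a separation that 4.36% of tested genes showed, and also for IRF8, which was not tested.

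IRF1, an early target gene of interferon gamma, had the largest fold of the tested members, with an interval that overlaps that of IRF7. It stood at 376, 403 and 277 CPM in the TEPA+IFN libraries, at 314, 280.3 and 234 CPM in the DC+IFN libraries and at 426, 402 and 215 CPM in the IFN libraries. The levels were 1.91, 2.84 and 1.83 CPM in TEPA, 2.001, 2.42 and 1.92 CPM in DC and 2.07, 2.42 and 2.06 CPM in C24 libraries. No library with interferon came near one without it, the lowest of the first kind being 215 CPM and the highest of the second 3.54 CPM.

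The log2 fold change of IRF1 was 7.32 (SE 0.31, 95% interval 6.67 to 7.97, edgeR adjusted p = 4.98e-13) for IFN against C24, a fold of 160.0. It was 7.02 (SE 0.31, edgeR adjusted p = 9.6e-13) for DC+IFN against DC and 7.31 (SE 0.31, edgeR adjusted p = 5.55e-13) for TEPA+IFN against TEPA. In these bulk libraries, more cells expressing a gene and more RNA per cell cannot be told apart. The IRF1 gene occupies chr5:132481609-132490798 on the minus strand of hg38, in 10 exons of the transcript used for its length. C5orf56 lies on the opposite strand over 7094 of those bases, and it rose with interferon too, by a log2 fold change of 4.87 (SE 0.40, edgeR adjusted p = 1.92e-08), to 6.15 CPM in IFN cells, against 0.207 CPM in C24 cells. The strand setting of the counting is not given in the sources used here, so reads of this antisense pair cannot be told apart.

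IRF2, known as a repressor that competes with IRF1 and as an activator at some promoters, rose less and with little spread. It stood at 59.9, 58.0 and 47.5 CPM in TEPA+IFN, 53.5, 51.6 and 42.9 CPM in DC+IFN and 60.9, 55.9 and 43.1 CPM in IFN libraries. It stood at 14.3, 14.9 and 13.6 CPM in TEPA, 14.6, 16 and 14.2 CPM in DC and 14.3, 13.6 and 13.9 CPM in C24 libraries, so the 2 sets did not overlap. The rise on the log2 scale was 1.93 (SE 0.13, edgeR adjusted p = 9.81e-10) for IFN against C24, 1.72 (SE 0.13, edgeR adjusted p = 5.99e-09) for DC+IFN against DC and 1.95 (SE 0.13, edgeR adjusted p = 8.92e-10) for TEPA+IFN against TEPA.

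Because IRF1 rose by more than IRF2, the length-scaled ratio of IRF1 to IRF2 was 4.09 ± 0.364 in TEPA+IFN, 3.59 ± 0.16 in DC+IFN and 4.11 ± 0.787 in IFN cells. It was 0.0984 ± 0.0209 in TEPA, 0.0908 ± 0.00577 in DC and 0.101 ± 0.012 in C24 cells (SD, n = 3). The IRF1 transcript thus outnumbered IRF2 in all 9 interferon libraries, with a lowest ratio of 3.21, and stayed below it in the other 15, with a highest ratio of 0.189. Replicate 3 had the lowest IRF1 and the lowest IRF2 level in each of the 3 interferon groups. Without IFN replicate 3, IRF1 rose by a log2 fold change of 7.57, the highest of all settings tried, and IRF2 by 2.19 where the GC trend was removed as well.

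IRF9, the DNA-binding subunit of ISGF3, stood at 71.7, 80.6 and 65.2 CPM in TEPA+IFN, 65.1, 65.5 and 68.0 CPM in DC+IFN and 78.2, 82.1 and 60 CPM in IFN libraries. It stood at 5.7, 7.06 and 7.13 CPM in TEPA, 6.37, 6.40 and 5.11 CPM in DC and 5.20, 6.01 and 5.18 CPM in C24 libraries. The sets lay far apart. IRF9 rose by a log2 fold change of 3.75 (SE 0.18, edgeR adjusted p = 3.4e-12) for IFN against C24, a fold of 13.4, with 3.47 for DC+IFN against DC (SE 0.18, edgeR adjusted p = 1.06e-11) and 3.45 for TEPA+IFN against TEPA (SE 0.18, edgeR adjusted p = 1.14e-11). A readthrough gene of GENCODE 29, AL136295.5, covers all 5513 bases of IRF9 on the same strand and has no row of its own in the table.

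IRF7, which drives interferon alpha genes after phosphorylation, was close to undetected without interferon. It held 124, 220 and 100 counts in the TEPA+IFN, 67, 67 and 111 in the DC+IFN and 176, 215 and 88 in the IFN libraries. It held 2, 8 and 4 counts in the TEPA, 1, 6 and 1 in the DC and 1, 2 and 2 in the C24 libraries. The lowest interferon library thus held 67 counts, against 8 in the highest 24 h library without interferon. The means were 4.91 ± 2.14 CPM in TEPA+IFN, 2.85 ± 0.519 in DC+IFN and 5.56 ± 2.52 in IFN cells, against 0.134 ± 0.0711 in TEPA, 0.081 ± 0.0797 in DC and 0.053 ± 0.0171 in C24 cells (SD, n = 3).

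The log2 fold change of IRF7 was 6.70 (SE 0.85, edgeR adjusted p = 9.88e-06) for IFN against C24, with a ratio of summed reads of 102 and a counting interval of 43.5 to 316. It was 5.06 (SE 0.80, edgeR adjusted p = 0.000165) for DC+IFN against DC and 5.14 (SE 0.74, edgeR adjusted p = 4.96e-05) for TEPA+IFN against TEPA. The transcript is the most GC-rich of the 8, at 66.8%. With the GC trend removed the values were 5.56, 4.75 and 4.54 (SE 0.44, 0.42 and 0.37), all called.

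**Figure D3:**
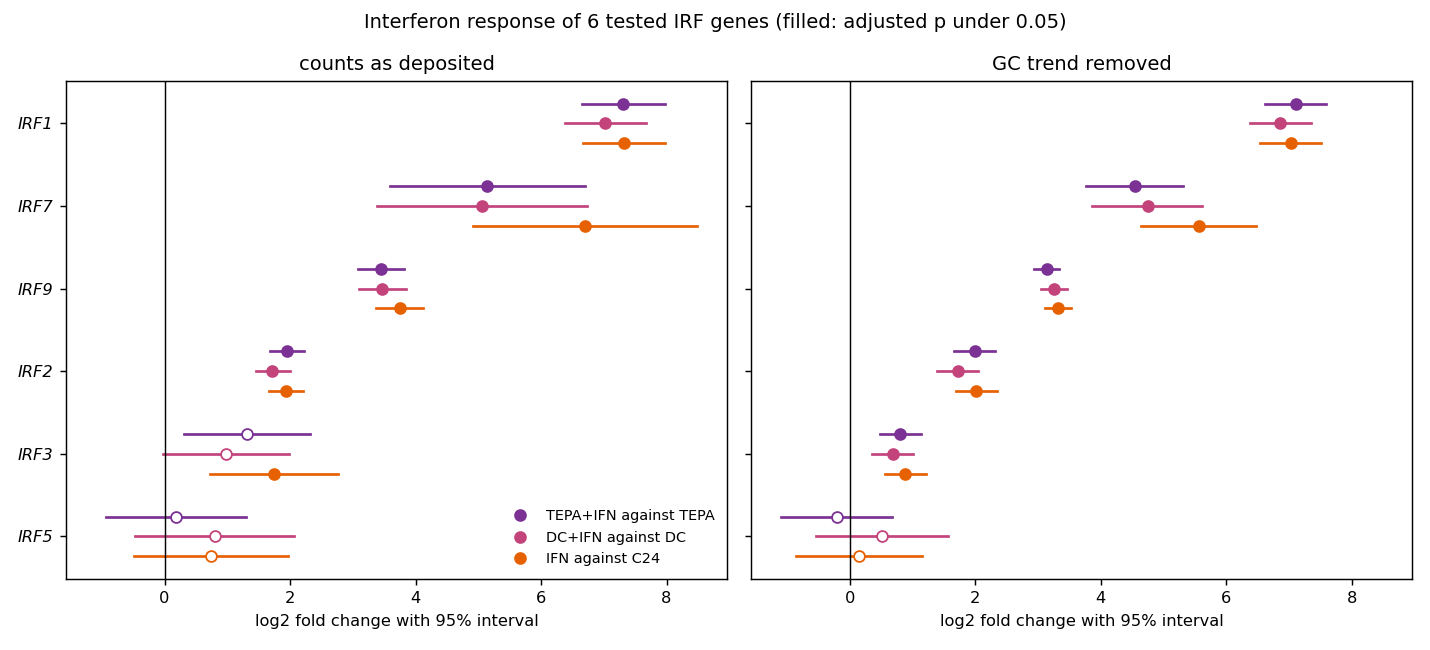
Log2 fold change with its 95% interval for the 6 tested IRF genes in the 3 interferon comparisons, from the counts as deposited on the left and with the GC trend removed on the right; filled circles are called at an adjusted p under 0.05. IRF1 lies near 7, IRF7 and IRF9 lie lower, IRF2 lies near 2, and the intervals of IRF3 narrow and leave 0 in all 3 comparisons on the right.

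IRF3, the IRF made by most cell types and controlled mainly at the protein level, gave a smaller difference that depended on the GC composition of the libraries. It stood at 9.87, 15.1 and 7.88 CPM in TEPA+IFN, 8.04, 8.36 and 9.12 CPM in DC+IFN and 13.02, 14.02 and 7.12 CPM in IFN libraries. It stood at 3.20, 7.16 and 2.81 CPM in TEPA, 4.37, 5.79 and 2.76 CPM in DC and 2.82, 4.40 and 2.98 CPM in C24 libraries. IFN and C24 libraries did not overlap, but the untreated 4 h libraries alone spanned 2.59 to 11.6 CPM.

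The log2 fold change of IRF3 was 1.74 (SE 0.49, edgeR adjusted p = 0.0176) for IFN against C24. Leaving out 1 library ended that call without IFN replicate 1 (adjusted p = 0.0614), IFN replicate 2 (0.0735), C24 replicate 1 (0.0807) or C24 replicate 3 (0.072), all by edgeR. For DC+IFN against DC it was 0.98 (SE 0.48, edgeR adjusted p = 0.268), and for TEPA+IFN against TEPA it was 1.31 (SE 0.48, edgeR adjusted p = 0.0781). Same-numbered libraries paired in TEPA+IFN against TEPA, and with the replicate number as a block the value was 1.35 (SE 0.45, edgeR adjusted p = 0.045), which passes the threshold.

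The IRF3 transcript is 61.5% GC, and its level followed the GC difference of the libraries: the 3 C4 libraries, at GC differences of -1.34, 0.65 and 1.37, held 63, 205 and 364 IRF3 counts, and the 3 Copper libraries, at -0.65, 0.79 and 1.34, held 132, 243 and 420. With the GC trend removed, IRF3 averaged 8.66 ± 1.38 CPM in TEPA+IFN, 8.36 ± 0.769 in DC+IFN and 8.71 ± 1.15 in IFN cells, against 4.91 ± 0.773 in TEPA, 5.16 ± 0.558 in DC and 4.72 ± 0.458 in C24 cells (SD, n = 3). The lowest interferon library then stood at 7.27 CPM and the highest other 24 h library at 5.53 CPM. The log2 fold change became 0.88 (SE 0.16, edgeR adjusted p = 0.000164) for IFN against C24, 0.69 (SE 0.15, edgeR adjusted p = 0.00224) for DC+IFN against DC and 0.81 (SE 0.15, edgeR adjusted p = 0.000359) for TEPA+IFN against TEPA. All 3 calls held whichever of their 6 libraries was left out, between 0.60 and 0.99. BCL2L12, which shares 734 bases with IRF3 on the opposite strand, had a log2 fold change of 0.91 (SE 0.43, edgeR adjusted p = 0.126) with IFN against C24, or 0.23 with the GC trend removed.

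**Figure D4:**
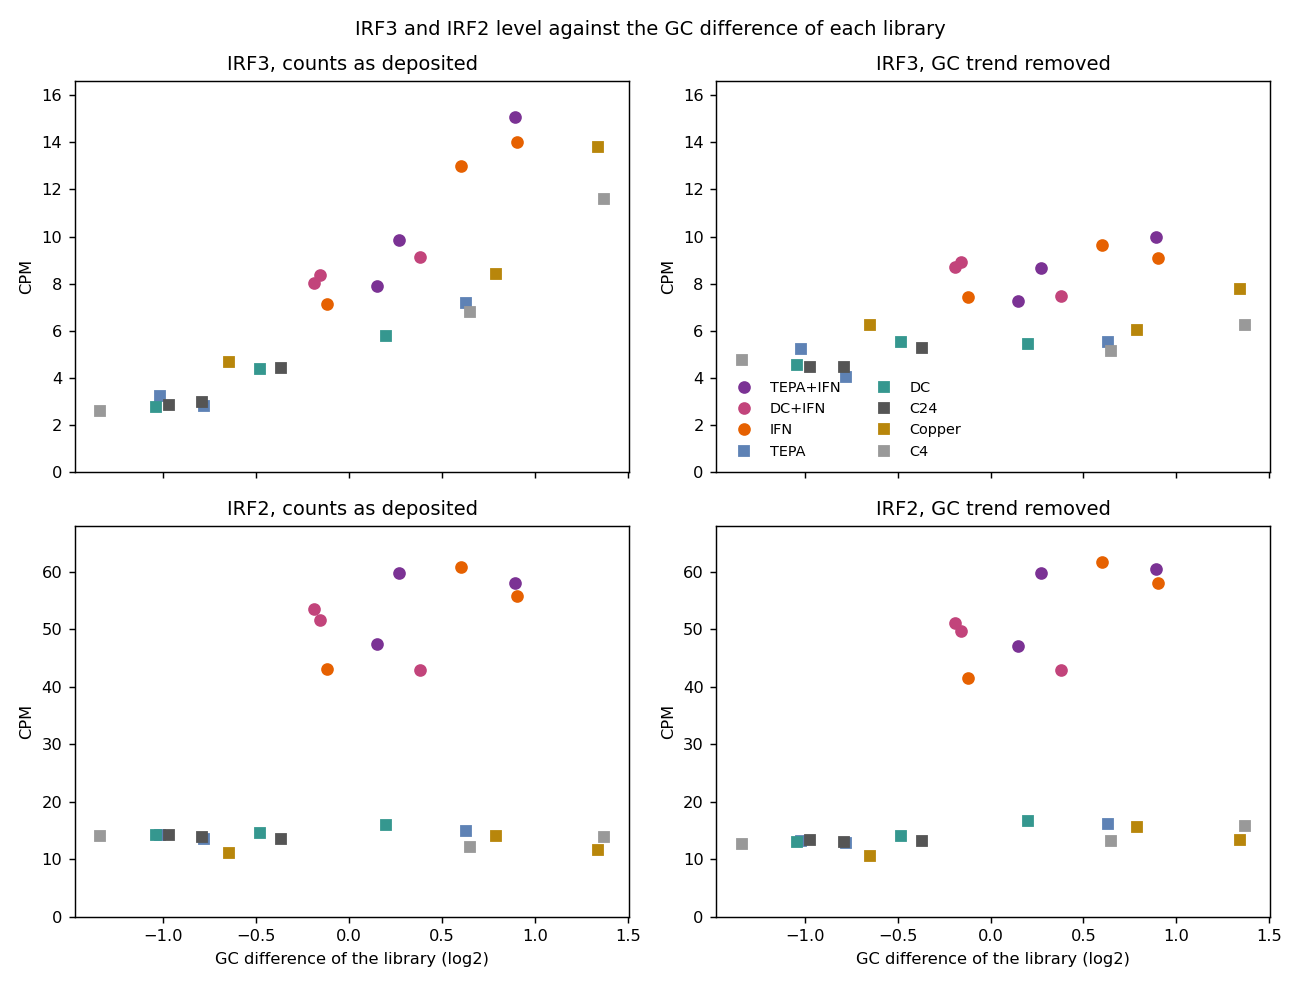
IRF3 (top) and IRF2 (bottom) in CPM against the GC difference of each of the 24 libraries, from the counts as deposited on the left and with the GC trend removed on the right; circles are libraries with interferon gamma and squares are the others. IRF3 climbs with the GC difference on the left and separates into 2 levels for the 24 h groups on the right, whereas IRF2 shows 2 levels on both sides.

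IRF5, a factor of macrophages and B cells, was low in all groups. It held 17, 25 and 10 counts in the TEPA+IFN, 6, 17 and 13 in the DC+IFN and 21, 10 and 9 in the IFN libraries, against 6, 28 and 18 in the TEPA, 8, 6 and 8 in the DC and 2, 11 and 13 in the C24 libraries. The groups overlapped throughout. The log2 fold change was 0.74 (SE 0.58, 95% interval -0.48 to 1.97, edgeR adjusted p = 0.327) for IFN against C24, 0.80 (interval -0.47 to 2.06) for DC+IFN against DC and 0.19 (interval -0.93 to 1.30) for TEPA+IFN against TEPA, so a log2 response above 2.06 lies outside all 3 intervals. With the GC trend removed the value for IFN against C24 was 0.15 (interval -0.86 to 1.15), and between -0.31 and 0.51 when 1 library was left out as well.

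IRF8, which directs myeloid development, held 3, 2 and 3 counts in the TEPA+IFN, 3, 3 and 1 in the DC+IFN and 4, 4 and 3 in the IFN libraries. It held 0 counts in every one of the 15 libraries without interferon. Taking 3 counts for the whole group as the floor where none was found, IRF8 was 3.91-fold higher in IFN than in C24. On the same basis it was 2.52-fold higher in DC+IFN than in DC and 2.91-fold higher in TEPA+IFN than in TEPA cells. These folds take the few interferon counts as exact, so they are not lower limits. IRF8 was below the filter on low counts. A fit of all 20107 genes with a count gave it an edgeR adjusted p of 0.0139 for IFN against C24, 0.0527 for DC+IFN against DC and 0.031 for TEPA+IFN against TEPA. At 0.126 CPM in IFN cells its level was far below that of IRF9 at 73.4 CPM.

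IRF4, a factor of lymphocytes and melanocytes, held 31 counts in all 24 libraries, with 2 in TEPA+IFN, 2 in DC+IFN, 6 in IFN, 4 in TEPA, 3 in DC, 1 in C24, 5 in Copper and 8 in C4 cells. The ratio of IFN to C24 was 6.4 with a counting interval of 0.777 to 295, and 5 of the 6 IFN counts came from 1 library. No difference with interferon was detectable at this depth. The ratio of C24 to C4 was 0.114 with a counting interval of 0.00258 to 0.853, which covers counting error only, and the fit of all genes gave it an edgeR adjusted p of 0.175.

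The comparisons of TEPA+IFN and DC+IFN with IFN ask whether either agent changed the level reached with interferon. No IRF gene was called in TEPA+IFN against IFN, where 1.9% of tested genes were, or in DC+IFN against IFN, where 0.0205% were, and none had an unadjusted p under 0.05 by edgeR in either. For TEPA+IFN against IFN the log2 difference was 0.02 for IRF1 (95% interval -0.46 to 0.49), 0.05 for IRF2 (-0.21 to 0.31), -0.05 for IRF3 (-1.04 to 0.93), -0.18 for IRF7 (-1.33 to 0.97) and -0.02 for IRF9 (-0.35 to 0.31). A change of IRF9 by over 1.5 times thus lies outside its interval, and one of IRF7 by that much does not. IRF5 differed by 0.33 (-0.81 to 1.47). STAT2, the partner of IRF9 in ISGF3, fell by 0.39 on the log2 scale in TEPA+IFN against IFN cells (SE 0.09, edgeR adjusted p = 0.029). Of 5 partners of IRF9 in ISGF3 and genes of the type I interferon receptor, it was the 1 called there.

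For DC+IFN against IFN the log2 difference was -0.33 for IRF1 (95% interval -0.81 to 0.14), -0.11 for IRF2 (-0.38 to 0.15), -0.42 for IRF3 (-1.41 to 0.57), -0.96 for IRF7 (-2.14 to 0.22) and -0.15 for IRF9 (-0.48 to 0.18). With the GC trend removed these were -0.23, -0.17, -0.07, -0.47 and -0.01, none called. IRF5 differed by -0.13 (-1.31 to 1.05). IRF7 at 2.85 CPM in DC+IFN and 5.56 CPM in IFN cells was the widest gap, and the libraries overlapped, with 2.36 to 3.40 CPM in DC+IFN and 2.80 to 7.73 CPM in IFN cells. For TEPA+IFN against DC+IFN, where 2.72% of tested genes were called, no IRF gene was, and the log2 difference was 0.35 for IRF1 (-0.12 to 0.83) and 0.78 for IRF7 (-0.39 to 1.96). Nor was any called in these 3 comparisons with the GC trend removed, where 13.6% of tested genes were for TEPA+IFN against IFN, 0.0614% for DC+IFN against IFN and 14.3% for TEPA+IFN against DC+IFN. DESeq2 and limma-voom called none of the 6 tested members in these 3 comparisons, in the 2 interactions or in the comparisons without interferon that follow.

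The test of whether the interferon response itself differed with either agent was the interaction. It called no IRF gene for TEPA or for DC, and 0% of all tested genes by edgeR on the counts as deposited. DESeq2 called 2 genes for DC and 0 for TEPA. With the GC trend removed edgeR called 10 genes for TEPA and 0 for DC, and with the replicate block alone 2 and 0. No IRF gene was among them. For the TEPA by IFN interaction the log2 value was 0.00 for IRF1 (95% interval -0.80 to 0.79), 0.02 for IRF2 (-0.36 to 0.39) and -0.30 for IRF9 (-0.78 to 0.18). For the DC by IFN interaction it was -0.29 for IRF1 (-1.09 to 0.50), -0.21 for IRF2 (-0.59 to 0.17) and -0.28 for IRF9 (-0.76 to 0.21). IRF3 had -0.43 (-1.84 to 0.98) with TEPA and -0.76 (-2.18 to 0.66) with DC, or -0.07 and -0.20 with the GC trend removed. The IRF7 intervals, -4.21 to 1.09 with TEPA and -4.52 to 1.23 with DC, were wide, and its counts without interferon were at most 8. Its values were -1.56 with TEPA and -1.65 with DC, or -1.02 and -0.81 with the GC trend removed. No member had an unadjusted p under 0.05 by edgeR in either interaction.

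Without interferon TEPA and DC left no called difference in any IRF gene. In TEPA against C24, where 1.06% of tested genes were called, the log2 difference was 0.02 for IRF1 (95% interval -0.61 to 0.65), 0.03 for IRF2 (-0.24 to 0.30), 0.38 for IRF3 (-0.64 to 1.39) and 0.28 for IRF9 (-0.07 to 0.64). The low-count members gave wider values, 0.88 for IRF5 (-0.32 to 2.08) and 1.38 for IRF7 (-1 to 3.76). Summed IRF5 counts were 52 in TEPA and 26 in C24 libraries, a ratio of 1.89 with a counting interval of 1.16 to 3.15, but single libraries overlapped. For IRF7 the sums were 14 in TEPA and 5 in C24 libraries, a ratio of 2.64 with a counting interval of 0.899 to 9.37. In DC against C24, where 0.0136% were called, it was -0.04 for IRF1 (-0.68 to 0.60), 0.10 for IRF2 (-0.17 to 0.37), 0.34 for IRF3 (-0.67 to 1.36), -0.18 for IRF5 (-1.49 to 1.13), 0.69 for IRF7 (-1.95 to 3.32) and 0.13 for IRF9 (-0.23 to 0.48). In TEPA against DC, where 1.26% were called, the widest gap was that of IRF5, with 6, 28 and 18 counts in TEPA and 8, 6 and 8 in DC libraries and a log2 difference of 1.06 (interval -0.16 to 2.29, edgeR adjusted p = 0.647). None of the 6 tested members had an unadjusted p under 0.05 by edgeR in any of these 3 comparisons. None was called with the GC trend removed either, where 9.55% of tested genes were for TEPA against C24, 0.0478% for DC against C24 and 10.6% for TEPA against DC.

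**Figure D5:**
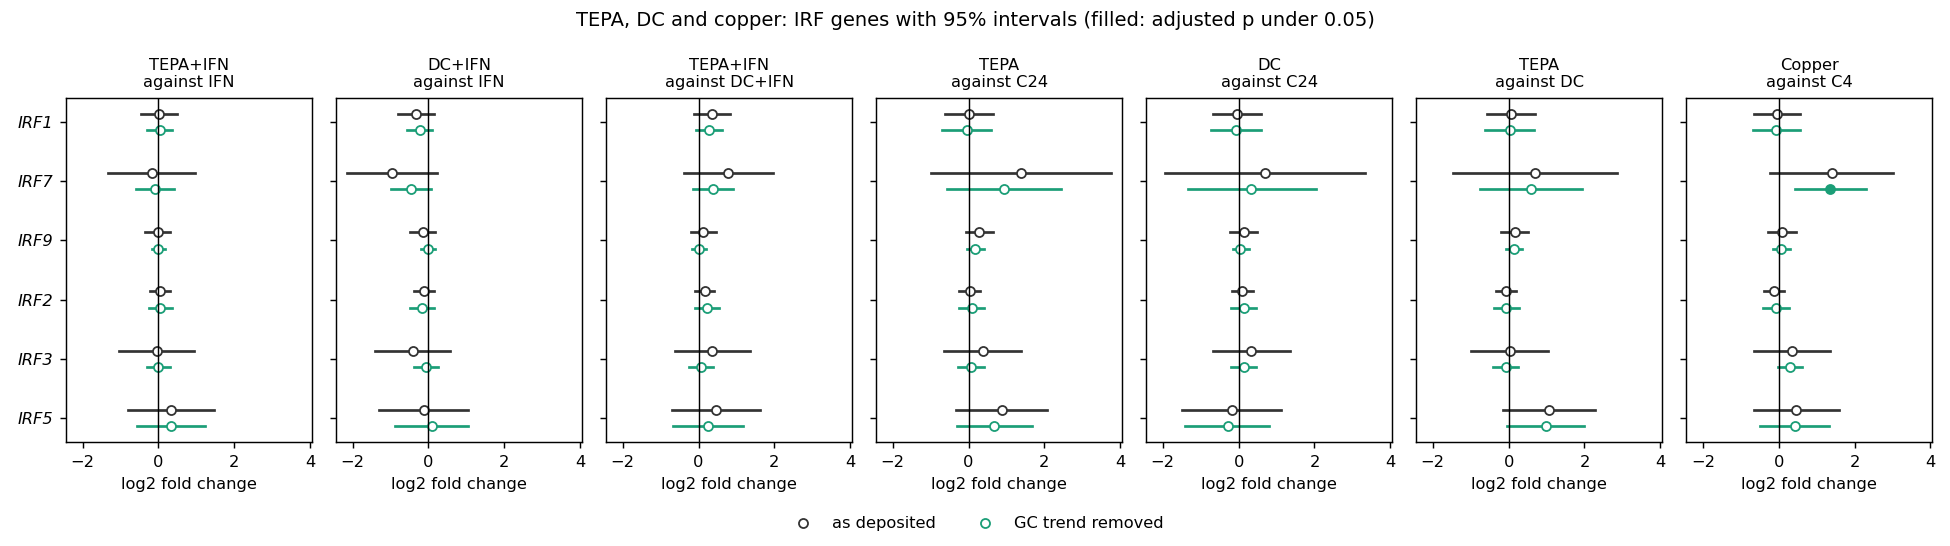
Log2 fold change with its 95% interval of the 6 tested IRF genes in 7 comparisons of TEPA, DC and copper, from the counts as deposited (black) and with the GC trend removed (green). The 1 filled circle is IRF7 in Copper against C4 cells with the GC trend removed, at 1.36; all others are open, meaning not called.

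Copper for 4 h left no IRF gene called on the counts as deposited, while 5.85% of tested genes were. The log2 difference of Copper against C4 was -0.04 for IRF1 (95% interval -0.66 to 0.57), -0.12 for IRF2 (-0.39 to 0.15), 0.35 for IRF3 (-0.64 to 1.35), 0.47 for IRF5 (-0.65 to 1.59) and 0.09 for IRF9 (-0.27 to 0.45). IRF7 held 5, 9 and 31 counts in Copper and 0, 3 and 14 counts in C4 libraries, and its log2 difference was 1.40 (SE 0.77, 95% interval -0.22 to 3.02, edgeR adjusted p = 0.422). Each Copper library held more IRF7 counts than the C4 library of the same number, and these libraries paired. With the replicate number as a block the value was 1.41 (SE 0.78, edgeR adjusted p = 0.376), not called. With the GC trend removed the value was 1.36 (SE 0.45, edgeR adjusted p = 0.0342), where 21.7% of tested genes were called, and that call held in 3 of 6 fits that left out 1 more library. On the counts as deposited the value was 0.35 without Copper replicate 3 and 3.22 without C4 replicate 3, so single libraries decide its size.

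Between the untreated cultures, C24 against C4, no IRF gene was called while 9.69% of tested genes were, and 1 of the 6 had an unadjusted p under 0.05 by edgeR. IRF1 had a log2 difference of -0.41 (95% interval -1.03 to 0.22), IRF2 of 0.07 (-0.20 to 0.34), IRF3 of -1.05 (-2.07 to -0.03, edgeR adjusted p = 0.141) IRF5 of -0.84 (-2.06 to 0.38), IRF7 of -1.85 (-4.15 to 0.44), or -0.61 with the GC trend removed, and IRF9 of 0.08 (-0.28 to 0.43). Without C4 replicate 1 the IRF3 value was -1.44 (edgeR adjusted p = 0.0166), and with the GC trend removed it was -0.20 (edgeR adjusted p = 0.356). IRF9 was called with the GC trend removed, at 0.39 (SE 0.10, edgeR adjusted p = 0.00981), where 26.8% of tested genes were. The mean GC difference was -0.71 in C24 and 0.23 in C4 libraries.

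Transcripts of the interferon gamma receptor, JAK1 and JAK2 were present before treatment. JAK2 rose with interferon, as did the inhibitors SOCS1 and SOCS3, and the receptor chains were not called. Of 7 genes of interferon gamma signalling, all tested, 3 rose in IFN against C24 and none fell, with a list median of 0.20 on the log2 scale against 0.01 for all tested genes. With the GC trend removed 4 of the 7 rose and the median was 0.38. For this list and those below, 10% of all tested genes rose in IFN against C24. That share was 6.16% in DC+IFN against DC and 7.28% in TEPA+IFN against TEPA. SOCS1, at 0.0449 CPM in C24 cells, passed the filter only through the interferon libraries, so its being tested already rests on the difference. SOCS1, an inhibitor of the JAK kinases, rose by 6.32 (SE 0.77, edgeR adjusted p = 5.76e-06), SOCS3, a related inhibitor, by 2.13 (SE 0.19) and JAK2 by 1.97 (SE 0.23). SOCS1 rose by 5.10 (SE 0.70) and SOCS3 by 1.36 (SE 0.26) with the GC trend removed. IFNGR1 and IFNGR2, the receptor chains, had log2 differences of -0.18 and 0.04. In DC+IFN against DC and in TEPA+IFN against TEPA the count was again 3 of 7, with medians of 0.27 and 0.29.

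Of 5 partners of IRF9 in ISGF3 and genes of the type I interferon receptor, 3 rose in each of the 3 interferon comparisons. In IFN against C24 STAT2 rose by 3.59 (SE 0.10, edgeR adjusted p = 1.04e-15), USP18, which holds back the type I receptor, by 5.11 (SE 0.16) and IFNAR2, a chain of that receptor, by 0.96 (SE 0.11). IFNAR1 had a log2 difference of -0.05 and TYK2, the kinase bound to it, of 0.64 (SE 0.34, edgeR adjusted p = 0.158), or -0.19 with the GC trend removed (edgeR adjusted p = 0.0739). Transcripts of the type I and III interferons themselves were at or near 0: none of the 9 listed passed the filter, and IFNB1, the highest in IFN cells, averaged 0.0329 CPM there and 0 in C24 cells.

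Upstream of IRF3, IRF5 and IRF7, 14 of 18 sensors, adaptors and kinases were tested and 5 rose with IFN against C24, with a list median of 0.43, or 0.09 with the GC trend removed. IFIH1 and DDX58, sensors of viral RNA, rose by 9.17 (SE 0.33) and 4.77 (SE 0.19), TLR3, an endosomal RNA sensor, by 6.39 (SE 0.48) and MYD88, the adaptor of most toll-like receptors, by 1.64 (SE 0.08). IFIH1 averaged 0.0994 to 0.207 CPM in the groups without interferon and 78.6 to 117 CPM in those with it. Its being tested therefore rests largely on the interferon libraries, and so on the difference itself. The kinase TBK1, which phosphorylates IRF3 and IRF7, had a log2 difference of 0.12 (SE 0.17, edgeR adjusted p = 0.584), and MAVS, the adaptor of DDX58 and IFIH1, one of 0.12 (SE 0.08). Both were called with the GC trend removed, TBK1 higher at 0.30 (SE 0.04, edgeR adjusted p = 1.1e-05) and MAVS lower at -0.09 (SE 0.03, edgeR adjusted p = 0.0471), so that 5 of the 14 rose and 1 fell. In the other 2 interferon comparisons 4 of the 14 rose, or 5 with the GC trend removed, when 1 fell.

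Most genes known as targets of these factors rose. Of 13 listed for IRF1, 12 rose in IFN against C24, with a median of 6.43, including TAP1 and PSMB9 of antigen processing at 10.66 (SE 0.27) and 11.25 (SE 0.37), and NLRC5, an activator of MHC class I genes, at 9.44 (SE 0.35). TAP1 rose by 10.07 and NLRC5 by 8.79 with the GC trend removed. CIITA, the activator of MHC class II genes, and CASP1, the inflammasome protease, had 0 counts in all C24 libraries. Again with 3 counts per group as the floor, they were 150.0-fold and 642-fold higher in IFN cells. NOS2 was the 1 not called, at 1.22 (SE 0.48, edgeR adjusted p = 0.0796). All 16 listed for ISGF3 rose, with a median of 8, among them IFI44L at 11.20 (SE 0.31) and IFIT3 at 11.37 (SE 0.31). Of all tested genes 10% rose. Genes at or near 0 without interferon passed the filter only through the interferon libraries, so their being tested already rests on the difference. Among them are CIITA, CASP1, PSMB9 and TNFSF10 of the IRF1 list and ISG15 and MX2 of the ISGF3 list. MX1, an antiviral GTPase of that list, averaged 42.4 CPM in IFN and 0.138 CPM in C24 cells. It fell by 1.26 on the log2 scale in TEPA+IFN against IFN cells (SE 0.32, edgeR adjusted p = 0.0434). It was the 1 of the 16 called there, with a list median of -0.22, and 0 of the 13 IRF1 targets were called. Of all tested genes 1.9% were called in that comparison. With the GC trend removed 3 of the 16 and 2 of the 13 fell and none rose, where 13.6% of tested genes were called.

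Smaller lists cover proteins that act with the IRFs. The partners and lineage genes of IRF4 and IRF8 were mostly silent, with SPI1, BATF and IKZF3 at 0 CPM in every group. The 3 of 8 that were tested rose in IFN against C24. BATF3, a partner of IRF8 in dendritic cells, rose by 5.21 (SE 0.60). BCL6, a transcriptional repressor that acts in B cells, rose by 5.37 (SE 0.74) and IKZF1, a lymphoid factor, by 1.22 (SE 0.22). BATF3, at 4.25 with the GC trend removed, and BCL6 passed the filter only through the interferon libraries, so that their being tested already rests on the difference. None of the 3 IRF2 binding proteins rose or fell, with log2 differences of 1.30 for IRF2BP1 (SE 0.56, edgeR adjusted p = 0.101), -0.17 for IRF2BP2 and -0.08 for IRF2BPL. IRF2BP1 with the GC trend removed stood at 0.16 and IRF2BPL at -0.97 (edgeR adjusted p = 0.0559), neither called. Of 6 ubiquitin ligases and an isomerase that act on IRF proteins, TRIM21 rose by 4.28 (SE 0.17, edgeR adjusted p = 1.16e-13) and RBCK1 by 2.12 (SE 0.42, edgeR adjusted p = 0.00116), or 1.07 with the GC trend removed, and the median was 1.46, or 0.44 with the GC trend removed.

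The genes whose pattern over the 24 libraries was most like each member were found by the root mean square difference of centred log2 CPM, a description in which all genes share the same libraries and depth. The nearest to IRF1 were ATP10A, CMPK2 and SLC15A3 at 0.33 to 0.36, set against a spread of IRF1 itself of 3.49 (SD). The nearest to IRF9 were STAT2 and LAP3 at 0.26 and PML at 0.32, and the nearest to IRF2 were RNF19B at 0.12, TVP23A at 0.16 and STAT3 at 0.17. For IRF7 they were HELZ2 at 0.48, SLC12A7 at 0.59 and CX3CL1 at 0.62, all wider. IRF3 lay nearest to MDK at 0.16, and IRF5 nearest to ARFRP1 at 0.42, set against a spread of IRF5 itself of 0.68. The GC trend, which the level of IRF3 followed, was not removed for these patterns, and likeness after its removal was not tested.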

How the data were processed

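Stranded mRNA libraries were sequenced, per the labels' protocols. The authors deposited whole-number read counts per gene symbol, without normalization, made with STAR 2.5a and RSEM 1.2.31 on hg38, per the submitters' processing notes. Annotation release, strand setting and filters are not given in the sources used here.

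The quasi-likelihood test of edgeR 4.0.16 (R 4.3.3) was run on all 24 libraries with 1 mean per group (16 residual degrees of freedom) after filterByExpr (minimum count 10) and TMM scaling, with Benjamini-Hochberg adjustment over 14654 genes and a threshold of 0.05. SE is the standard error of a fitted log2 fold change. Ratios of summed counts carry exact 95% intervals of counting error only. Length, GC content and gene spans come from GENCODE 29, which matched 90.3% of symbols. Of tested genes, 93.8% had a GC content. The GC trend was removed with a smoothing spline (6 degrees of freedom) of each library's log2 deviation on GC content, entered as an offset.

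Replicate numbers come from the titles. They were taken to pair libraries where every same-numbered pair deviated together over genes (correlation above 0.1): TEPA+IFN against TEPA (0.29, 0.56 and 0.23), DC against C24, TEPA against C24, TEPA against DC and Copper against C4. Alternatives were the replicate block, RLE scaling, no filter, limma-voom (limma 3.58.1), DESeq2 1.42.0, only the libraries compared, and each library left out.

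Named are the 8 members, of each list up to 4 called genes by smallest adjusted p (2 by level where none is called), overlapping genes and the 3 nearest patterns. CIITA, CASP1 and list genes given as not called or at 0 were chosen after their values were seen. The members and lists were chosen with earlier results of these data known. Of these lists, 2 genes are not reported here and were left out of the counts.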

Additional observations from a re-analysis of the deposited data

How the results depend on the processing

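IRF1, IRF2, IRF7 and IRF9 were called in all 3 interferon comparisons under every one of the 21 settings tried for each, between 6.75 and 7.57 for IRF1, 1.64 and 2.19 for IRF2, 4.39 and 7.03 for IRF7 and 3.03 and 3.88 for IRF9 on the log2 scale. IRF3 was called under 17 of 21 settings for IFN against C24, 9 for DC+IFN against DC and 12 for TEPA+IFN against TEPA. Some settings were added after the data were seen: leaving out C4 replicate 1 and Copper replicate 1 together, and removing the GC trend with each library left out. The number of IRF genes called stayed at 4 to 6 for IFN against C24 and at 4 or 5 for the other 2. For Copper against C4 it was 1 in place of 0 with the GC trend removed, with or without the replicate block, and 0 to 1 when libraries were left out. For C24 against C4 it was likewise 1 with the GC trend removed, with or without the block, and 0 to 1 when libraries were left out. The cause was not tested. No member's called value changed sign.

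With the replicate block the pairing changed the call of 1 member, IRF3 in TEPA+IFN against TEPA (1.35, adjusted p = 0.045 by edgeR), and no other. Where the numbers did not pair the libraries, the block gave 5 IRF genes for IFN against C24 and 4 for DC+IFN against DC.

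The number of tested genes called moved more. Removing the GC trend gave 5260 in place of 2761 for IFN against C24, 3756 in place of 1439 for DC+IFN against DC, 4623 in place of 2076 for TEPA+IFN against TEPA, 3180 in place of 857 for Copper against C4 and 3922 in place of 1420 for C24 against C4. Fitting only the libraries compared gave 6857, 1587, 1149, 55 and 1 for the same 5. Removing the trend moved the TEPA comparisons by larger factors, to 1996 in place of 279 for TEPA+IFN against IFN, 1399 in place of 155 for TEPA against C24, 1553 in place of 185 for TEPA against DC and 2100 in place of 398 for TEPA+IFN against DC+IFN, whereas fitting only the libraries compared gave 107, 0, 2 and 667 for these 4. DESeq2 gave 2510 for C24 against C4. Depth limits IRF4, IRF5, IRF8 and, without interferon, IRF7, whose libraries held at most 31 counts of each.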
